A study of Mus musculus with 15 samples.

Results

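The oxidative phosphorylation genes examined here encode the subunits of the 4 respiratory chain complexes and of the ATP synthase (complex V). They were taken from the raw count tables by symbol: names of the Nduf a, b, c, s and v series, Sdha to Sdhd, names starting with Uqcr, Cox4 to Cox8 or Atp5, and Cyc1. The rule found 85 genes among 32657 features, 35 of complex I, 4 of complex II, 9 of complex III, 20 of complex IV and 15 of complex V, plus Atp5s and Atp5sl, which share the name but are not subunits of the synthase. Ndufa4 and its paralog Ndufa4l2 were counted with complex IV, where the protein resides, and Cyc1 with complex III. The subunits encoded by mitochondrial DNA were not analysed here.

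Complex I takes electrons from NADH and complex II takes them from succinate. Both pass them through ubiquinone to complex III, which hands them to cytochrome c and so to complex IV, where oxygen is reduced. Complexes I, III and IV pump protons across the inner mitochondrial membrane, and the synthase uses the resulting gradient to make ATP. Neurons cover most of their ATP need in this way. Each complex has a catalytic core, assembled with accessory subunits that stabilise it or tune its activity. Several complex IV subunits exist as tissue-specific isoforms encoded by separate genes, and the c subunit of complex V is also encoded by several genes.

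Translating ribosome affinity purification (TRAP) pulls down tagged ribosomes of one cell population with the mRNAs they carry (IP), and the RNA of the whole lysate (input) serves as the reference. In the WT mice, Drd3-Cre KI198::Rosa26-fsTRAP, the Cre driver switches on the tagged ribosomal protein EGFP-L10a. In the cKO mice, Drd3-Cre KI198::Rosa26-fsTRAP::Htr4-Floxed, the same driver also removes a floxed part of Htr4, the gene of the serotonin receptor 5-HT4R, so both genotypes carried Cre and the tag. The driver is a bacterial artificial chromosome transgene active in granule cells and mossy cells of the dentate gyrus, and the animals were 8 to 12 weeks old. The 15 libraries fell into 6 groups: WT ventral dentate gyrus (vDG) IP and input and WT dorsal dentate gyrus (dDG) input with 3 libraries each, and cKO vDG IP, vDG input and dDG input with 2 each. Each library was made from pooled animals, 3 per IP and 2 per input in the labels, whereas the study's methods give 1 male and 1 female mouse per replicate. The labels give the cortex as the tissue source of the inputs while the titles name the dentate gyrus. The p-values below measure the spread between such pools.

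Library totals ran from 19039295 to 30451430 counts, of which the 85 genes took 0.750 to 1.05%. Granule cell markers (7 genes, C1ql2 and Dsp among them) summed to 1359 to 1461 CPM (counts scaled to a common library size) in the WT IP and 1058 to 1208 in the WT vDG input, and to 1679 to 1765 in the WT dDG input. Mossy cell markers (5 genes) summed to 59.8 to 89.2 CPM over the vDG libraries and 4.53 to 6.49 over the dDG libraries. Markers of several other cell types were lower in the IP: 5 astrocyte genes summed to 55.3 to 99.5 CPM in the WT IP against 416 to 504 in the input, 6 interneuron genes to 166 to 188 against 449.9 to 501, and 5 microglia genes to at most 5.09 against up to 35.7. Others overlapped between the WT IP and input. These were 4 CA pyramidal cell genes (10.5 to 12.1 against 10.4 to 12.3 CPM) and 5 genes of endothelial cells and pericytes (4.61 to 13.4 against 8.51 to 10.5). None of these markers was at 0 in every library of a group. Htr4 had 339, 403 and 395 counts in the WT IP and 635 and 634 in the cKO IP, and was higher in the cKO in every pair of groups. Counts over the whole gene do not check the removal of 1 part of it. The third WT IP library stood apart. Log2 ratios to the mean of all 15 libraries were taken for the 76 oxidative phosphorylation genes with at least 5 CPM. Their median was −0.18 in that library against 0.47 and 0.32 in the other WT IP libraries. Its ribosomal protein genes had a median of −0.55 against 0.08 and 0.07. The counts and medians it moves most are also given without it.

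Levels between genes were compared only as CPM per kilobase of mRNA. In the WT vDG IP, the synthase subunit Atp5b, the catalytic beta subunit, was the highest member at 1127 ± 126 CPM per kb (SD, n = 3). It was followed by Ndufa4 at 360.3, Cox7c at 341, the complex IV subunit Cox4i1 at 310.5 ± 98.9, and Atp5a1, the alpha subunit, at 296 ± 58.0. These followers did not differ beyond their spread. Cox8a, a small membrane subunit of complex IV, ranked 7 with 251 ± 35.8 CPM per kb. Ndufc1 was the highest of complex I (229 ± 19.3) and Ndufb4 the lowest (14.2). Within complex II, the flavoprotein Sdha stood at 163 ± 6.38 and the membrane anchor Sdhc at 29.8, and within complex III the hinge protein Uqcrh stood at 203 ± 58.9 and the core protein Uqcrc1 at 39.2. In complex V the lowest member was Atp5l at 10.2, and the non-subunits Atp5s and Atp5sl stood at 22.1 and 9.01. Subunit mRNAs of 1 complex thus differed several-fold in level, although the assembled complexes hold most subunits in equal numbers.

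The isoform pairs separated clearly in level. The ubiquitous forms Cox4i1, Cox6a1 (219 ± 51.2 CPM per kb) and Cox6b1 (132 ± 39.5) carried nearly the whole signal, whereas the muscle and heart form Cox6a2 stood at 0.23, and the testis form Cox7b2 at 0.80. Cox8c, another testis form, had 0 counts in all 15 libraries, and Cox8b, a muscle form, had 0 to 4. The lung form Cox4i2 had 1 to 17 counts and Cox7a1, of heart and muscle, 1 to 14, beside 160.3 ± 51.9 CPM per kb for Cox7a2. Ndufa4l2, known from hypoxic cells, had 0 to 13 counts. Cox6a2 and the testis form Cox6b2 were low in the IP and higher in the input. Cox6a2 had 2, 9 and 1 counts in the WT IP against 20, 26 and 22 in the WT vDG input, and 0 and 0 in the cKO IP against 44 and 18 in the cKO vDG input. Cox6b2 had 2, 1 and 2 counts in the WT IP against 6, 12 and 13 in the input, and 0 and 2 in the cKO IP against 45 and 16. For both genes every IP library lay below every input library in each genotype. Cox6a2 is also known from parvalbumin interneurons, and the 6 interneuron markers, Pvalb among them, were lower in the IP in both genotypes (115 to 131 CPM in the cKO IP against 371 to 373 in the cKO vDG input); their part in this difference was not tested. Of the 3 genes encoding the same c subunit of the synthase ring, Atp5g1 (237 ± 35.7 CPM per kb) and Atp5g3 (211 ± 67.3) did not differ beyond their spread, and Atp5g2 was lower at 40.5 ± 16.1.

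**Figure D1:**
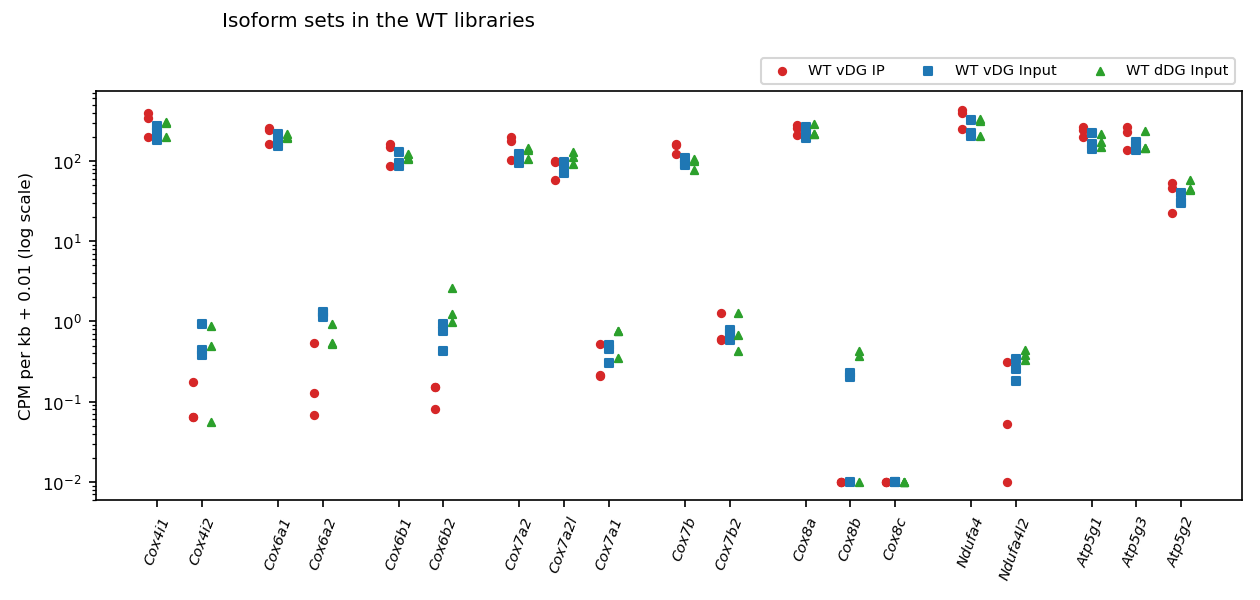
Level of each gene of the isoform sets in the WT libraries (CPM per kilobase of mRNA plus 0.01, log scale), with 1 point per library. The ubiquitous forms sit well above the muscle, heart, lung and testis forms, and Cox8c is at the floor with 0 counts.

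Nuclear genes of the respiratory chain are known targets of NRF1 and of ETS-family factors (GABP, also called NRF2). Promoter windows of 300 bases, 250 before to 50 after the start, were taken from RefSeq (GRCm38.p6) and matched to 69 of the 85 genes, with 75 windows in all, against 32851 windows of all genes. Both strands were searched. The NRF1 letters (GCGCA, any base, then GCGC) were found in 18 of the 75 windows (24%) and in 4.6% of all windows. The ETS letters CCGGAAG were found in 16 (21.3%) against 8.86%, the YY1 letters AAGATGGC in 12 (16%) against 2.75%, and the Sp1 letters GGGCGG in 29 (38.7%) against 35.7%. By complex, NRF1 letters were found in 7 of 31 genes of complex I, 2 of 3 of complex II, 1 of 5 of complex III, 1 of 14 of complex IV and 6 of 14 of complex V. The ETS and YY1 letters share AAG at their ends and can overlap in a window. A match is a description of these letters and not evidence of binding. The windows of Cox8a, Uqcrc1 and Sdha are shown because these genes carry results below between genotypes or between IP and input. Cox8a also holds a different motif from Uqcrc1 and Sdha. Capitals mark the NRF1 or ETS letters on either strand. The Cox8a window (chr19:7217567-7217866, minus strand) holds the ETS letters at 2 places and no NRF1 letters, the Uqcrc1 window (chr9:108936398-108936697, plus strand) holds the NRF1 letters at 2 places, and the Sdha window (chr13:74350191-74350490, minus strand) holds them at 3 places.
Cox8a: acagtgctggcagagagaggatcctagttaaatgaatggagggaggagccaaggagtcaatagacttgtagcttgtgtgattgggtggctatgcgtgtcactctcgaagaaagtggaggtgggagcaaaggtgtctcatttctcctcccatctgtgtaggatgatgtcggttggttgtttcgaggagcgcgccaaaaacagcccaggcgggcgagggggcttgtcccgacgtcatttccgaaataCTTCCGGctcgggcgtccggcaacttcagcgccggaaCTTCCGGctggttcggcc
Uqcrc1: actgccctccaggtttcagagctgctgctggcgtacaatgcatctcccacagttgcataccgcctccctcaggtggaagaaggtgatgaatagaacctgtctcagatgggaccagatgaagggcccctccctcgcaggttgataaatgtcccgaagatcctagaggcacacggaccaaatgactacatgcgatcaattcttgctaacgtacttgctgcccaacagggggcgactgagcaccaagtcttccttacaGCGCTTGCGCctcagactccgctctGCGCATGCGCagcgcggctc
Sdha: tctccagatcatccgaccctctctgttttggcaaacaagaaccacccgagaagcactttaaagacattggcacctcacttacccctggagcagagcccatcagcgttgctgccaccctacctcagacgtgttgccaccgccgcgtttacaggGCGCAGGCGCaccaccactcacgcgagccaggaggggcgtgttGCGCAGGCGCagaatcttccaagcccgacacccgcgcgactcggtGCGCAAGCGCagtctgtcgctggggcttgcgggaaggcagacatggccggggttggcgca

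In the WT vDG, mRNAs of all 5 complexes lay slightly higher in the IP than in the input. Of the 79 members that passed the expression filter, 77 had a log2 fold change above 0, against 50.2% of the 15011 genes tested, and their median was 0.35 against 0.00 over all genes. Few passed the test one by one: 9 members were called higher (11.4%) and 1 lower at a false discovery rate (FDR) of 0.05 in edgeR's quasi-likelihood test, while 7.73% of all genes were called higher and 16.1% lower. An unadjusted p under 0.05 was found for 40 members (36.1% of all genes). Every library of the IP lay above every input library for 15 of the 79 members, a share close to the 18.2% of all genes. The whole-lysate RNA includes astrocytes, interneurons and microglia, whose markers lay lower in the IP as given above; the part of this change in the members' values was not tested, and in bulk RNA fewer cells of a type and less RNA per cell cannot be told apart.

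**Figure D2:**
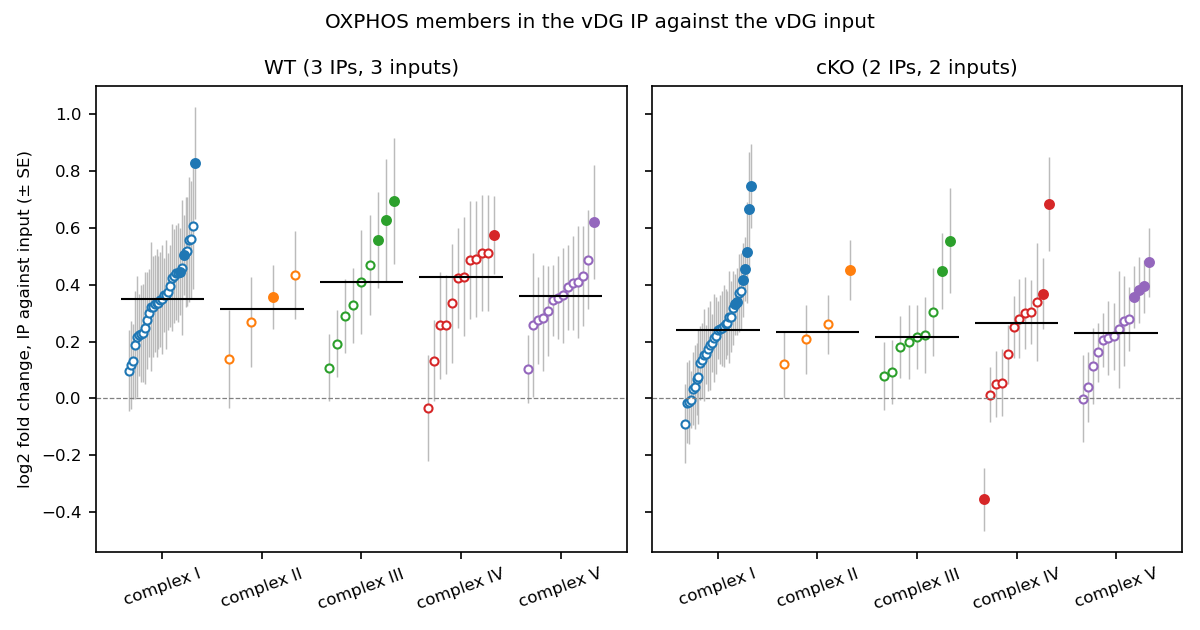
Log2 fold change of IP against input (± SE) for each member with at least 5 CPM, grouped by complex, in WT (n = 3 and 3 libraries) and cKO (n = 2 and 2). Filled points passed an FDR of 0.05 and the line is the median of the members shown. Nearly all members lie above 0 in both genotypes, and the complexes do not separate.

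The complexes did not stand apart from each other: the median log2 fold change was 0.35 for complex I (3 of 35 called higher), 0.31 for complex II (1 of 4), 0.41 for complex III (3 of 9), 0.38 for complex IV (1 of 14 higher and 1 lower) and 0.35 for complex V (1 of 15). The 3 complex I genes were Ndufb6, Ndufc1 and Ndufa13, all accessory subunits. Ndufb6 had 65.0, 59.9 and 45.1 CPM in the IP and 36.5, 21.3 and 36.6 in the input, with no overlap, a log2 fold change of 0.83 ± 0.20 (SE) and FDR 0.00724. Ndufb6 shares 39% of its exonic bases with Smim27 on the other strand, and Ndufa13 shares 30% with Tssk6, so reads of these pairs could not be told apart. Ndufc1 had 71.4, 78.3 and 66.2 CPM in the IP against 42.0, 49.3 and 58.3 (0.50 ± 0.14, FDR 0.0184), again with no overlap.

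For complex II, Sdha on chromosome 13 (GRCm38, 74322254 to 74350280, minus strand) had 492, 455 and 471 CPM in the IP and 389, 337 and 362 in the input. The groups did not overlap and the log2 fold change was 0.36 ± 0.11 (FDR 0.0329). For complex III the ubiquinone-binding subunit Uqcrq (0.69 ± 0.22, FDR 0.0361), Uqcr11 (0.63) and Uqcrb (0.56) were called higher. In Uqcrq, the IP libraries had 86.2, 70.8 and 41.8 CPM against 39.8, 32.0 and 49.3, so the third IP library lay within the range of the inputs. In complex IV, Cox7b rose from 109, 89.7 and 92.8 CPM in the input to 162, 156 and 123 in the IP (0.57 ± 0.14, FDR 0.0074), and Cox6a2 was lower (−2.40). Cox8a did not pass the test, with 142, 156 and 117 CPM in the IP and 107, 121 and 144 in the input (0.13 ± 0.14, FDR 0.542). In complex V the epsilon subunit Atp5e was called higher (0.62 ± 0.20, FDR 0.0376) and the abundant Atp5b was not (0.10 ± 0.12, FDR 0.574).

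These counts rested on single libraries. Without the third WT IP library, 57 members were called higher (71.2%, against 10.2% of all genes) and 2 lower (17% of all genes). The median was then 0.53, and Ndufb6 (0.98), Uqcrq (0.95), Uqcr11 (0.89), Atp5e (0.88) and Cox7b (0.70) had larger log2 fold changes. Without the first IP library 3 members were called higher (3.75%, against 6.51% of all genes) and 1 lower (15.3% of all genes), with a median of 0.23. Without the second, 4 were called higher (5%, against 4.93%) and 1 lower (13.1% of all genes). Without the second input library 3 were called higher (3.8%, against 6.07%) and 0 lower (13%). Without the first input library 6 were called higher (7.5%, against 3.86%) and 2 lower (12.1%). Scaling by library size alone left 2 called higher (2.53%, against 3.24% of all genes). It left 71 of 79 above 0, with a median of 0.22 against −0.13 over all genes.

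In the cKO vDG the direction was alike, with a smaller median. Of 81 members tested, 72 lay above 0 against 47.6% of all 15126 genes, with a median of 0.22 against −0.03. At FDR 0.05, 16 members were called higher (19.8%; 11.8% of all genes) and 3 lower (3.7%; 15.7% of all genes). Both IP libraries lay above both inputs for 57 members (70.4%), against 34.1% of all genes. The medians were 0.24 for complex I (7 of 35 higher), 0.23 for complex II (1 of 4), 0.22 for complex III (2 of 9), 0.20 for complex IV (2 of 16 higher, 3 lower) and 0.24 for complex V (4 of 15).

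Ndufc1 had the largest called increase, with 105 and 97.1 CPM in the IP and 67.6 and 48.5 in the input (0.75 ± 0.15, FDR 0.00281), and Ndufb4, another accessory subunit of complex I, had 15.3 and 15.8 against 10.7 and 8.15 (0.67 ± 0.20, FDR 0.0265). Sdha had 371 and 402 CPM against 250.0 and 294 (0.45 ± 0.11, FDR 0.00746), and the complex III core protein Uqcrc1 42.9 and 51.0 against 31.8 and 34.6 (0.45 ± 0.13, FDR 0.0269). Uqcrb of the same complex had 41.8 and 40.9 against 33.1 and 21.1 (0.55 ± 0.18, FDR 0.0401). None of these genes overlapped between IP and input. Cox7b had 163 and 159 CPM against 118 and 74.9 (0.68 ± 0.17, FDR 0.00937) and Cox6c 177 and 165 against 144 and 112 (0.37 ± 0.12, FDR 0.0441). Among the synthase genes, the delta subunit Atp5d had 281 and 282 CPM against 206 and 206 (0.39 ± 0.09, FDR 0.00812), and the ring subunit gene Atp5g1 243 and 219.7 against 178 and 142 (0.48 ± 0.12, FDR 0.0111). Cox7a2l, known as a supercomplex factor, was called lower, at 90.1 and 81.2 CPM in the IP against 109.9 and 101 in the input (−0.35 ± 0.11, FDR 0.0301). The other two called lower were the isoforms Cox6b2 and Cox6a2. Cox6a2 had 0 counts in both cKO IP libraries and 44 and 18 in the cKO vDG inputs, so no fold change is given for it. Cox8a did not pass the test (0.34 ± 0.21, FDR 0.253). Its cKO inputs differed from each other, at 222 and 119 CPM, and its IPs had 234 and 214. The difference was 0.87 (FDR 0.000272) without the first cKO input and −0.04 without the second. Without the second cKO input library the members' median was 0.11. Under scaling by library size alone 2 members were called higher (2.47%, against 4.96% of all genes) and 3 lower (21.4% of all genes). The median was then 0.05 against −0.20 over all genes, with 53 of 81 above 0.

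Of the 79 members tested in both genotypes, 72 lay higher in the IP in both and 2 lower in both. The members called higher in both were Ndufc1, Cox7b, Uqcrb, Sdha and Ndufa13, and the member called lower in both was Cox6a2. The IP to input ratio was compared between the genotypes in a genotype by fraction interaction, which called no gene at all and so does not separate members from other genes. In it, 0 of 81 members passed an FDR of 0.05 in edgeR (0.00% of all genes) or in DESeq2, 1 had an unadjusted p under 0.05 (3.09% of all genes), and the median was −0.09 with 24 members above 0. It was −0.29 without the third WT IP library (11 above 0) and 0.02 without the second WT vDG input library (43 above 0).

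**Figure D3:**
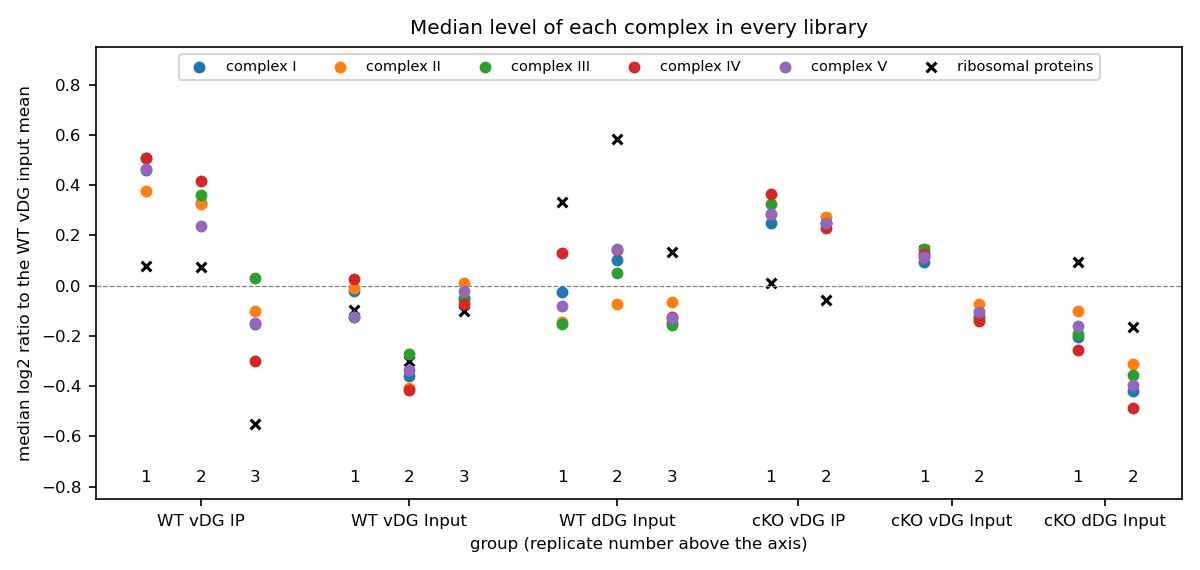
Median log2 ratio to the mean of all 15 libraries over the members of each complex, in each library (76 members with at least 5 CPM, crosses mark ribosomal protein genes). The axis label names the WT vDG inputs, but the reference is the mean of all libraries. The third WT IP library sits below the other two in every complex, and the complexes spread apart within some libraries (−0.30 for IV and 0.03 for III in that library).

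The region comparison asked whether the vDG and dDG inputs differed within each genotype. In WT, members lay lower in the vDG: 17 of 80 were above 0 against 49.1% of all 15412 genes, with a median of −0.17 against −0.01. One member, Atp5g2, was called lower and 0 were called higher (6.09% and 9.26% of all genes). Atp5g2 had 13.1, 13.6 and 17.4 CPM in the vDG and 19.8, 25.3 and 19.2 in the dDG, without overlap (−0.55 ± 0.16, FDR 0.025). That call was lost without the first vDG library (FDR 0.0899), without the second (FDR 0.0948) and without the second dDG library (FDR 0.162). Without the third vDG library 3 members were called lower (4.12% of all genes). Without the third dDG library 2 were called higher (2.47%, against 8.23% of all genes) and 6 lower (5.63% of all genes). The median was −0.07 without the second vDG library (26 members above 0) and −0.06 without the second dDG library (29 above 0), with 0 called in both. The medians by complex were −0.18 for I, −0.08 for II, −0.19 for III, −0.21 for IV and −0.13 for V.

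In cKO the direction was the other way. Of 81 members, 72 lay higher in the vDG (50.9% of all 15505 genes), with a median of 0.29 against 0.01, and 19 were called higher (23.5%; 8.56% of all genes) and 0 lower (8.47% of all genes). The called members were 7 of complex I, 0 of complex II, 2 of complex III, 7 of complex IV and 3 of complex V, with medians of 0.28, 0.24, 0.24, 0.39 and 0.31. Both vDG libraries lay above both dDG libraries for 47 members (58%), against 30.4% of all genes. The accessory complex I subunit Ndufa12 had 43.8 and 33.5 CPM in the vDG and 27.4 and 22.9 in the dDG (0.61 ± 0.15, FDR 0.00633), and Ndufa6 had 22.5 and 20.6 against 15.5 and 12.9 (0.60 ± 0.16, FDR 0.011). Uqcr10 of complex III had 84.3 and 70.1 against 55.9 and 47.0 (0.58 ± 0.13, FDR 0.00352), and Uqcr11 46.9 and 38.8 against 34.3 and 26.5 (0.49 ± 0.14, FDR 0.0228). In complex IV, Cox6b1 had 86.3 and 63.5 against 58.6 and 42.9 (0.55 ± 0.15, FDR 0.0154) and Cox4i1 197 and 188 against 153 and 122 (0.48 ± 0.12, FDR 0.0076). The synthase genes Atp5e (0.54 ± 0.13, FDR 0.00743) and Atp5g1 (0.49 ± 0.13, FDR 0.0112) also rose. In each of the genes given with CPM both vDG libraries lay above both dDG libraries. Cox6a2 was called higher (1.94) from low counts of 44 and 18 against 7 and 7, and Cox8a did not pass (0.46 ± 0.19, FDR 0.111; −0.08 without the first cKO vDG input and 0.83, FDR 2.15e-07, without the second). The members' median was 0.14 without the first cKO vDG input and 0.19 without the second cKO dDG input, each leaving a single library in its group.

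Set side by side, 60 of the 80 members tested in both genotypes were lower in the vDG in WT and higher in the vDG in cKO, 6 the opposite, 11 higher in both and 3 lower in both. The difference itself was tested as the genotype by region interaction. Its median was 0.44 over 83 members against −0.01 over all genes, 70 members were above 0, and 39 had an unadjusted p under 0.05 (12.3% of all genes). The median was 0.29 without the first cKO vDG input. None passed an FDR of 0.05 in edgeR (0.00% of all genes), where the lowest FDR was 0.167, and 3 were called higher in DESeq2 (3.61%, against 0.331% of all genes higher and 1.24% lower). Markers of other cells moved between the regions too. Granule cell markers were called lower in the vDG in 5 of 7 genes in WT and 6 of 7 in cKO, and interneuron markers were called higher in 3 of 6 in each genotype. The choroid plexus gene Ttr was called lower in the vDG in WT and higher in cKO, and the 4 choroid plexus markers summed to 23.5 to 28.9 CPM in the WT vDG input against 32.4 to 144 in the WT dDG input, and to 22.4 to 35.0 against 18.3 to 23.1 in cKO. The part of these cells in the members' values was not tested.

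mRNA length moved with this pattern. The members are short, 315 to 3171 bases with a median of 732, and 57 of the 85 are under 1000 bases. In the WT region comparison the 48 short members with at least 5 CPM had a median log2 fold change of −0.22 and the 28 long ones −0.02, and over all genes the short and long medians were −0.20 and 0.00. In cKO the short members had 0.37 and the long ones 0.16, with 0.19 and −0.04 over all genes. In the interaction the values were 0.57 and 0.09, with 0.37 and −0.05 over all genes (expressed genes with a known length). Across the 76 members, Spearman's rho between length and log2 fold change was 0.68 in WT, −0.65 in cKO and −0.78 for the interaction, as a description over genes that share the same libraries. With the length trend of all genes removed, the medians were −0.01 in WT, 0.13 in cKO and 0.13 for the interaction, 0 members were called in WT, and 6 of 81 were called higher (7.41%, against 9.53% of all genes under the same correction) and 1 lower (8.53% of all genes) in cKO. The ribosomal protein genes, also short, had a median of −0.52 in the WT comparison (65 of 80 called lower, 81.2%, against 6.09% of all genes). In cKO it was 0.07 (2 higher and 2 lower, 2.5% each, against 8.56% and 8.47% of all genes).

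**Figure D4:**
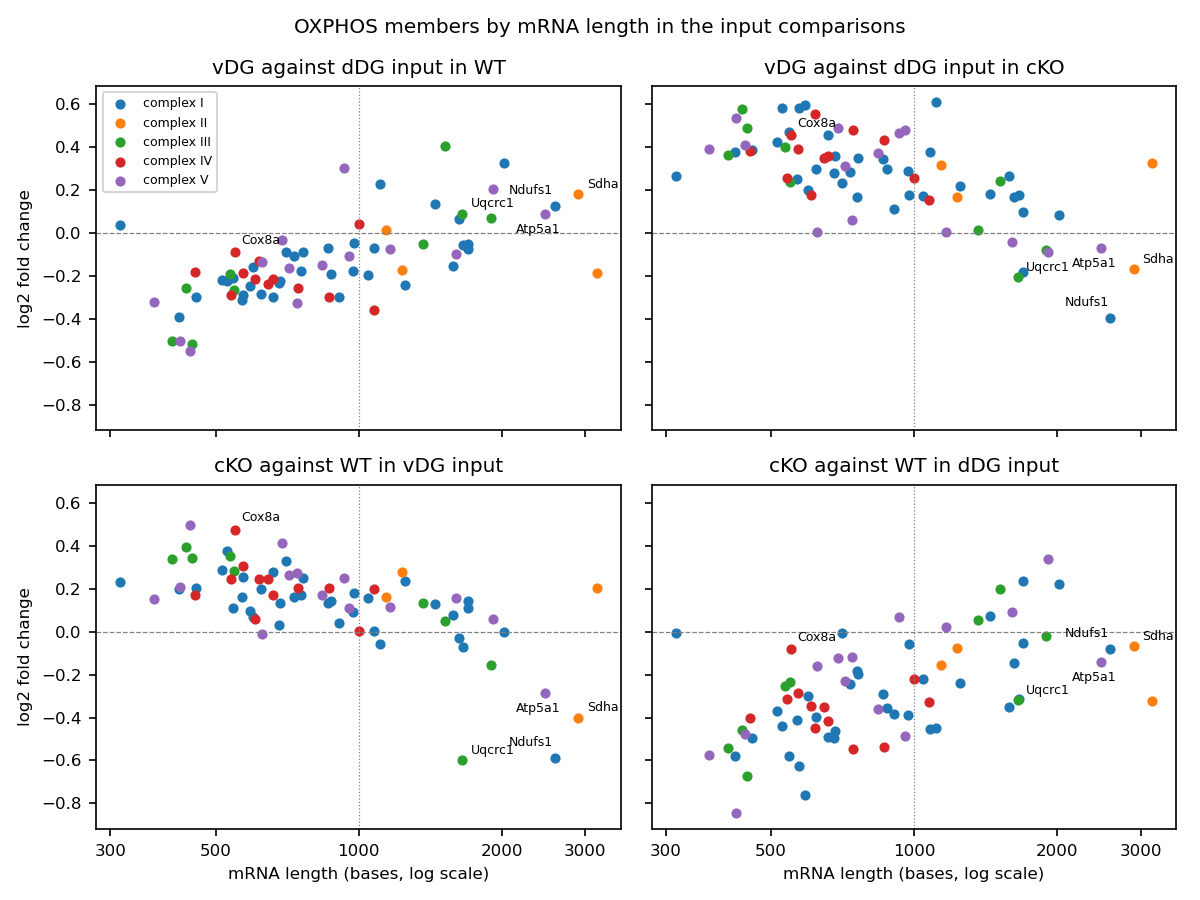
Log2 fold change against mRNA length (bases, log scale) for members with at least 5 CPM in the 4 comparisons between input groups; the dotted line marks 1000 bases. Short members lie lowest in the vDG to dDG comparison of WT and in the cKO to WT comparison of dDG, and highest in the other two.

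The genotype comparison of the vDG IP asked which mRNAs on tagged ribosomes differed between cKO and WT, at an FDR of 0.1. Of 78 members, 1 was called higher, Cox8a, and 0 lower, against 0.0699% and 0.350% of the 14300 genes tested. The median was 0.07 against 0.00, and 48 members were above 0 (49.8% of all genes). By complex the medians were 0.05 for I, 0.12 for II, 0.02 for III, 0.09 for IV and 0.08 for V, and no test was run on a complex as a whole. Without the third WT IP library the median was −0.12 with 23 members above 0. Cell type markers moved in this comparison too. Their medians were −0.56 for mossy cells, −0.36 for interneurons (Gad2 called lower) and −0.72 for astrocytes. Granule cell markers had 0.19 and markers of neurogenesis 0.31, and the other cell type lists lay between −0.11 and −0.31. Their part in the members' values was not tested.

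**Figure D5:**
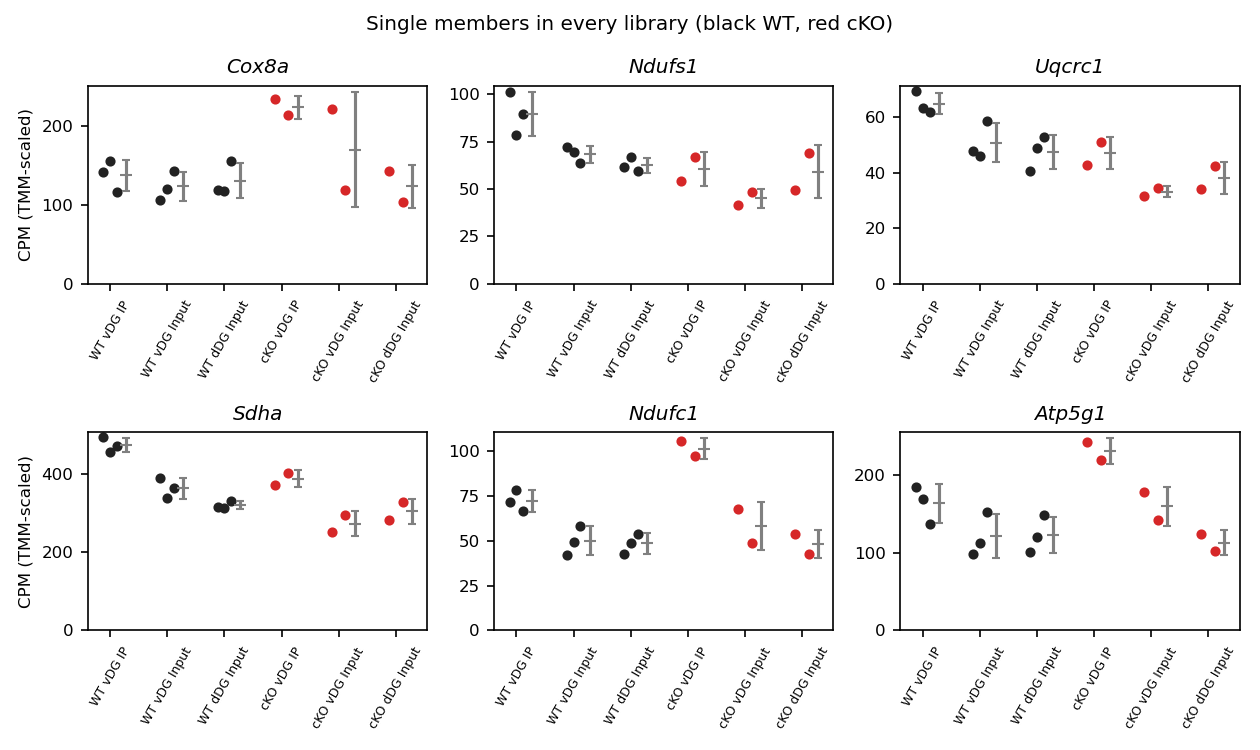
CPM in each library for Cox8a, Ndufs1, Uqcrc1, Sdha, Ndufc1 and Atp5g1, with the mean and SD of each group. In the IP, both cKO libraries lie above the 3 WT libraries for Cox8a, Ndufc1 and Atp5g1 and below them for Ndufs1, Uqcrc1 and Sdha.

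Cox8a lies on chromosome 19 (7215153 to 7217616, minus strand, GRCm38) and has an mRNA of 550 bases. Its IP values were 234 and 214 CPM in cKO and 142, 156 and 117 in WT, without overlap (0.70 ± 0.14, FDR 0.0831). Without the third WT IP library the difference was 0.59 (FDR 0.0687). The call was lost without the second WT IP library (FDR 0.156), without either cKO IP library (FDR 0.908 and 0.272) and with all 15 libraries in a single fit (FDR 0.102). Its vDG inputs were 222 and 119 CPM in cKO and 107, 121 and 144 in WT, overlapping, with 0.47 ± 0.18 and FDR 0.182. This input difference was −0.05 without the first cKO input library and 0.86 (FDR 0.0346, called) without the second. In the dDG input the difference was −0.08. No other complex IV member passed. Ndufc1 (0.49 ± 0.14, FDR 0.203) and Atp5g1 (0.50 ± 0.15, FDR 0.225) had both cKO libraries above all WT libraries and did not pass. The count of members called was 2 without the first WT IP library (2.56% higher, against 0.249% of all genes). It was 0 without the second, where 0% of all genes were called.

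Other members lay lower in the cKO IP. Ndufs1, which carries iron-sulfur clusters of complex I (chromosome 1, 63143596 to 63176833, minus strand, GRCm38), had 54.2 and 66.7 CPM in the cKO IP and 101, 78.2 and 89.3 in the WT IP (−0.57 ± 0.16, FDR 0.201). Uqcrc1 had 42.9 and 51.0 against 69.2, 63.3 and 61.9 (−0.47 ± 0.15, FDR 0.251), and Sdha 371 and 402 against 492, 455 and 471 (−0.29 ± 0.13, FDR 0.395). The groups did not overlap in these 3 genes nor in Atp5a1 (−0.35 ± 0.16, FDR 0.419), which was picked after its values were seen, and none of the 4 passed the test. All libraries of the cKO lay below those of WT for 5 of the 78 members and above for 6, against 16.0% and 15.1% of all genes.

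In the vDG input, 2 of 81 members were called lower at FDR 0.05 and 0 higher, against 2.33% and 0.108% of all 15786 genes, so the members were called lower about as often as other genes. The called genes were Ndufs1 and Uqcrc1. Ndufs1 had 41.6 and 48.5 CPM in cKO and 72.2, 69.6 and 63.5 in WT (−0.59 ± 0.14, FDR 0.0213). Uqcrc1 (chromosome 9, 108936633 to 108949623, plus strand, GRCm38) had 31.8 and 34.6 against 47.8, 45.9 and 58.7 (−0.60 ± 0.15, FDR 0.0269). Neither gene overlapped between the genotypes. Ndufs1 was not called without the first (FDR 0.424) or the second cKO library (FDR 0.132). Uqcrc1 was not called without either of them (FDR 0.386 and 0.19), nor without the third WT library (FDR 0.127), and without the second cKO library 1 member was called higher, Cox8a. Sdha did not pass (−0.40 ± 0.13, FDR 0.103), although its cKO values of 250.0 and 294 CPM lay below the WT values of 389, 337 and 362. In contrast to these genes, 70 of 81 members were above 0 (51.4% of all genes) with a median of 0.17 against 0.01, and by complex 0.14, 0.18, 0.28, 0.22 and 0.16 for I to V. The second WT vDG input library lay below the other two, with a member median of −0.37 against −0.07 and −0.04. Without it the median was 0.07 with 59 members above 0, and without the first cKO input library it was 0.05 with 54 above 0. Short members had a median of 0.20 and long ones 0.09, with 0.20 and 0.00 over all genes. With the length trend removed the median was 0.01, 42 members were above 0, and the calls were the same 2 genes. Astrocyte markers had a median of −0.62 in this comparison (3 of 5 called lower), and their part in these values was not tested.

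In the dDG input, members lay lower in cKO. Of 80 members 12 were above 0 (46.4% of all 15383 genes), with a median of −0.31 against −0.02. None passed an FDR of 0.05 in edgeR, where 0.00650% of all genes were called higher and 0.0260% lower, with a lowest FDR of 0.157. Unadjusted p-values under 0.05 were found for 40 members (12.2% of all genes), and DESeq2 called 2 lower (0.683% of all genes). Both cKO libraries lay below all WT libraries for 32 members, against 15.7% of all genes. Medians were −0.35 for I, −0.11 for II, −0.25 for III, −0.35 for IV and −0.16 for V. Short members had −0.38 and long ones −0.08, with −0.19 and 0.01 over all genes, and with the length trend removed the median was −0.13. Without the third WT library, 1 member was called higher (0.441% of all genes) and 8 lower (0.415% of all genes). The median was −0.20 with 24 members above 0 without the second cKO library. Markers of some other cells lay lower in cKO as well, with medians of −0.43 for astrocytes, −0.51 for microglia (0 of 5 genes above 0), −0.78 for endothelial cells and pericytes and −0.50 for choroid plexus. Those of interneurons (−0.03, 3 of 6 genes above 0), neurogenesis (−0.04) and oligodendrocytes (−0.12) moved less. None of these markers was called, and their part in the members' values was not tested. The most abundant member went the other way: Atp5b had 2070.5 and 2233 CPM in cKO and 1494, 1624 and 1995 in WT (0.34, FDR 0.256), which did not pass. Ndufs1 (−0.08), Uqcrc1 (−0.32) and Sdha (−0.07) did not pass here either.

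Genes that serve the complexes without being their subunits were counted in lists chosen with earlier results of these data known. Of 45 assembly factors tested in the WT IP comparison, 3 were called higher (6.67%, against 7.73% of all genes: Lrpprc, which stabilises mitochondrial mRNAs, Sdhaf4 and Tmem70) and 1 lower (Coa5), with a median of 0.21. In cKO 6 were called higher (13.3%, against 11.8% of all genes), among them the same 3, and 2 lower (Coa5 and Ndufaf4), with a median of 0.16. Of 7 carriers and synthase-associated genes, Atpif1, the inhibitor of ATP hydrolysis, and Usmg5 were called higher in the IP in both genotypes (28.6%, against 7.73% of all genes in WT and 11.8% in cKO). The list of the pyruvate dehydrogenase complex and citric acid cycle, which feed the chain with NADH and succinate, held 16 genes. In the WT IP 3 were called higher (Dlat, Dld and Ogdh, 18.8%, against 7.73% of all genes). In the cKO IP 9 were called higher (56.2%, against 11.8% of all genes), with a median of 0.34. Suclg2 was called lower in both. Between the genotypes, Lrpprc was the one gene of these 4 lists that was called, lower in the cKO vDG input. Of 12 transcription factors and coactivators of mitochondrial genes, 2 were called higher in the WT IP (Polrmt and Yy1) and 2 lower (Esrra and Ppargc1a). These are 16.7% each, against 7.73% and 16.1% of all genes. In the cKO IP 1 was called higher (Tfam) and 1 lower (Ppargc1a), 8.33% each against 11.8% and 15.7% of all genes. Ppargc1a, the coactivator PGC-1alpha, was also called higher in the vDG than in the dDG input in both genotypes.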

How the data were processed

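RNA of the 15 libraries was amplified (NuGEN Ovation V2) and sequenced by the authors, who trimmed the reads, checked them with FastQC 0.11.4, aligned them to mm10 with STAR 2.4.2a, removed duplicates with SAMtools 0.1.19-444 and counted them per gene with HTSeq. The deposited values used here are these raw counts per gene. Removing duplicates can lower the values of abundant, short genes most. Deposited tables of the authors' own comparisons (fold changes, p-values and normalized values) were not used.

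Groups were taken from the labels. The 85 members and all gene lists were chosen with earlier results of these data known. Each comparison was fitted over its own libraries across all genes with edgeR 4.0.16 (R 4.3.3): filterByExpr, TMM scaling, quasi-likelihood F-test, Benjamini-Hochberg FDR, called under 0.1 for cKO against WT in vDG IP, after the study's threshold, and under 0.05 elsewhere. The filter kept 78 members in every comparison, and Cox4i2, Cox6a2, Cox6b2, Cox7a1, Cox8b, Cox8c and Ndufa4l2 failed it in at least 1. CPM are TMM-scaled. mRNA lengths and positions are from GENCODE (GRCm38), with a length for 84.3% of the features with a count. The length correction removed a loess trend (span 0.5). Alternatives were DESeq2 1.42.0, other scalings, no filter, all libraries in a single fit, a replicate block, the length correction and each library left out. The fits were tested on simulated counts. Named by rule were Cox8a, the highest member of each complex, members called between genotypes, up to 2 called members per complex and direction with the largest change and at least 5 CPM, the isoform sets, members failing the filter and the non-subunits; others were picked after their values were seen. Replicate libraries differed by more than sampling noise, and none was a duplicate.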

Additional observations from a re-analysis of the deposited data

How the results depend on the processing

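The sign of the members' median held under every alternative for IP against input and for the input comparisons. It turned for cKO against WT in the vDG IP (main 0.07), to −0.12 without the third WT library, −0.13 with the replicate block, −0.02 with length correction and −0.11 with both. Counts of members called, both directions summed, moved far more. Paired percentages in brackets give the share called higher, first of members and then of all genes. For IP against input in WT (main 10) DESeq2 gave 28 (34.2%, 10.2%), DESeq2 size factors 17 (20.3%, 8.47%) and library size alone 3 (2.53%, 3.24%). No count filter gave 40 (46.4%, 7.47%) and all libraries in a single fit 45 (50.6%, 14.4%). Length correction gave 26 (31.6%, 8.32%), and 26 with the replicate block (31.6%, 8.43%). An FDR of 0.1 gave 35, and leaving out a library 3 to 59. In cKO (main 19) library size alone gave 5 and a median of 0.0532, the single fit 9, the replicate block 39, length correction with the block 40 and leaving out a library 8 to 21. For the region in WT (main 1) DESeq2 gave 4, library size 2, no filter 6, the single fit 0, the block 7, length correction 0 (median −0.0122), length correction with the block 5 (median −0.0125), an FDR of 0.1 7 and leaving out a library 0 to 8. In cKO (main 19) library size gave 30 (37%, 11.5%), the single fit 1 (1.2%, 4.17%) and the block 40 (48.1%, 12.1%). Length correction gave 7 (7.41%, 9.53%, median 0.13), and 13 with the block (14.8%, 11.8%, median 0.13). An FDR of 0.1 gave 30, and leaving out a library moved the median as given above. For cKO against WT in the vDG IP (main 1) DESeq2 gave 5 (3.85%, 0.531%), no filter 4 (3.61%, 0.407%) and the block 0 (Cox8a 0.59, FDR 0.118). An FDR of 0.05 gave 0 and leaving out a WT library 0 to 2. In the vDG input (main 2) the single fit gave 0 (0.812% of all genes lower). The block gave 2, of them 1 higher and 1 lower (0.291% and 2.31% of all genes), with Uqcrc1 at −0.49 (FDR 0.126). Leaving out a WT library gave 1 to 2. In the dDG input (main 0) DESeq2 gave 2, both lower (0.683% of all genes lower), and no filter 17, of them 16 lower (1.12%). The block gave 11, of them 10 lower (0.488%). Length correction with the block gave 10, of them 6 lower (1.61%), with a median of −0.17. Length correction alone gave a median of −0.13, and leaving out a WT library 0 to 9 calls. The interaction with fraction stayed at 0, block included. The interaction with region (main 0, block 0) had 3 with DESeq2 (3.61%, 0.331%), 13 without a filter (15.5%, 0.525%) and 0 to 1 leaving out a WT library. Ndufc1 in the dDG input comparison of genotypes (main −0.01) became 0.48 (FDR 0.0323) under length correction with the block. The causes were not tested. Among single named members, 840 of the alternative values kept sign and call, 52 turned sign without a call on either side, 103 lost the call and 44 gained it.

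Same-numbered libraries did not deviate together in every pair of groups. The correlation of their deviations was 0.46, −0.16 and −0.33 for WT IP and input, and 0.39, −0.11 and 0.22 for the WT inputs of both regions. It was 0.40 for cKO IP and input, 0.16 for the cKO regions, and below 0 in every pair between genotypes. With 2 libraries in each cKO group, both pairs within cKO have the same value by construction and count as a single value. Inputs came from homogenates before the IP, but no source used here ties the numbers to shared pools, so the numbers were not taken to pair the samples. The cKO dDG inputs were numbered 1 and 2 after their titles. Another numbering would change the block values of the dDG genotype and cKO region comparisons, the Ndufc1 value included, and was not run. Each group held 2 or 3 pooled libraries, so the tests rest on few samples.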

Other observations

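Ribosomal protein genes, the other large group of short and abundant mRNAs, had medians that differed from those of the oxidative phosphorylation members in some comparisons. In IP against input their median was 0.03 in WT and −0.08 in cKO, where the oxidative phosphorylation members had 0.35 and 0.22. In WT 2 of 80 were called higher and 1 lower (7.73% and 16.1% of all genes). In cKO 0 were called higher (11.8% of all genes) and 14 lower (17.5%, near the 15.7% of all genes). Between genotypes their median was 0.20 in the vDG input (80 of 80 above 0, 0 called in edgeR), −0.42 in the dDG input and 0.05 in the vDG IP. The citric acid cycle genes had a median of −0.12 in the vDG input and 0.11 in the dDG input, against 0.17 and −0.31 of the members. The difference between these lists was not tested.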
